A study of Mus musculus with 18 samples.

Results

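The 6 genes described here encode the mouse receptors for immunoglobulin G (IgG) of the Fc gamma family and their partners: Fcgr1, Fcgr3, Fcgr4, Fcgr2b, Fcer1g and Fcgrt. They were taken by gene symbol, and all 6 were found in each of the 3 deposited tables, which hold 18853, 18373 and 24781 genes. RNA was sequenced in 18 libraries of Kupffer cells, macrophages that reside in the liver, from wild-type C57BL/6J mice that, per the labels, had received acetaminophen, a painkiller whose overdose injures hepatocytes. The groups of 3 libraries each were taken at 0 h, 3 h, 6 h and 12 h, or came from mice given acetaminophen with an anti-CD41 antibody or with a control IgG antibody. CD41 is a platelet integrin subunit, the product of Itga2b, and antibodies to it serve to remove platelets from the blood. Age and dose are not in the labels, nor is a time for the antibody groups. The column names of the 0 h libraries refer to PBS although their treatment label names acetaminophen, so that group is called by its time alone. The labels do not state separate animals for the 3 libraries of a group, and p-values therefore cover only the variation among these libraries, which may be technical.

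Fc gamma receptors bind the constant part of IgG and so let phagocytes take up targets coated with antibody. In mice, the activating receptors FcγRI (Fcgr1), FcγRIII (Fcgr3) and FcγRIV (Fcgr4) depend on the common gamma chain (Fcer1g), whose activation motif recruits the kinase Syk. FcγRIIB (Fcgr2b) is the inhibitory receptor: its inhibitory motif recruits the lipid phosphatase SHIP1 (Inpp5d). FcRn (Fcgrt) differs from the others: paired with beta-2 microglobulin (B2m), it returns IgG and albumin from endosomes to the cell surface. In the liver, Kupffer cells carry activating and inhibitory receptors, and sinusoidal endothelial cells carry much of the FcγRIIB, which clears small immune complexes.

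The cells were collected by collagenase perfusion, a density gradient and brief adherence to plastic, and the fraction put to adherence also held sinusoidal endothelial cells, per the labels' protocols. Defining genes of Kupffer cells were present in every library: 10 of them (Clec4f, Timd4, Vsig4 and others) summed to between 8739 and 18215 CPM, the count of a gene per 1e6 counts of its library. The summed CPM of 11 sinusoidal endothelial markers was between 1663 and 12525, so these bulk libraries hold RNA of both cell types, and fewer cells of a type cannot be told apart from less RNA per cell. Markers of mast cells and basophils, which share the gamma chain through the IgE receptor, summed to at most 3.94 CPM in any library. Total counts were between 18644317 and 20583052 in the time-course libraries and between 28017439 and 38382509 in the antibody libraries.

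By the GRCm38 annotation, 4 of the 6 genes lie close together on chromosome 1: Fcgr2b at chr1:170958617-170976547 on the minus strand, Fcgr4 at chr1:171018920-171029761 on the plus strand, Fcgr3 at chr1:171051174-171064935 on the minus strand and Fcer1g at chr1:171229572-171234365 on the minus strand. Fcgr1 lies at chr3:96282909-96293969 and Fcgrt at chr7:45092990-45103851, both on the minus strand. The exons of Fcgr2b share 155 bases with Gm38204, an annotated gene on the opposite strand that none of the tables lists, and whether the counting used strand is not given in the sources used here.

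Fcgr2b and Fcgr3 were the only members whose deposited counts in the time-course tables were not whole numbers, in 12 of 12 libraries each, whereas the counts of the other 4 members were whole. The coding sequences of these receptors, one inhibitory and one activating, hold an identical stretch of 129 bases, at positions 278 to 406 of the 1020 coding bases of Fcgr2b and 263 to 391 of the 801 coding bases of Fcgr3. Both stretches are printed here because a read that falls inside them matches both genes. They are given 5′ to 3′ on the coding strand, from GRCm38 with the GENCODE annotation, with the identical stretch in capitals and 15 bases on each side in lower case.
Fcgr2b: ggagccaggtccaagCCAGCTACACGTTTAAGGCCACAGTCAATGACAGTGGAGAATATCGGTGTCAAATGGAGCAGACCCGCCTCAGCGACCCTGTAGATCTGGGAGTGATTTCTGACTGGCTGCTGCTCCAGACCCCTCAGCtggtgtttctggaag
Fcgr3: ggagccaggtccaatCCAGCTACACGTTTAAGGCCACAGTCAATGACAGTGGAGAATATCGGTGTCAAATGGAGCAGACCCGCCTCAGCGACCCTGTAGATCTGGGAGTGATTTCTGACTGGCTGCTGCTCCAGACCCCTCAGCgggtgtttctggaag
Of the 50-base windows of the Fcgr3 transcript, 12.8% also occur in Fcgr2b, and 4.75% of those of Fcgr2b occur in Fcgr3. Not all of these windows lie inside the printed stretch, which is the longest that the 2 coding sequences share. No window of that length was shared by any other pair of members. Counts of Fcgr2b and Fcgr3 are therefore uncertain to the extent that shared reads were split between them, and how the authors counted such reads is not given in the sources used here.

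Promoters are shown for the 3 activating receptors, of which Fcgr3 and Fcgr4 rose at 3 h and Fcgr1 fell. Each runs from 250 bases before to 50 bases after the RefSeq start of the gene (GRCm38.p6), 5′ to 3′ on the gene's strand. Capitals mark matches to GAGGAA, searched on both strands (TTCCTC on the other), a core sequence bound by the macrophage transcription factor PU.1 (Spi1). The promoters lie at chr3:96293920-96294219 (Fcgr1, minus strand), chr1:171059354-171059653 (Fcgr3, minus strand, 1 of its 2 starts in the table) and chr1:171018676-171018975 (Fcgr4, plus strand).
Fcgr1 promoter: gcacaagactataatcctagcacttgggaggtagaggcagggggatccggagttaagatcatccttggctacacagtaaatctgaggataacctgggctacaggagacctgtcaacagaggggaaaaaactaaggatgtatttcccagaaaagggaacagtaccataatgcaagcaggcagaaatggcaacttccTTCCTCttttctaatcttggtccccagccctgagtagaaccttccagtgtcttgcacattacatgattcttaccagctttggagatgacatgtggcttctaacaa
Fcgr3 promoter: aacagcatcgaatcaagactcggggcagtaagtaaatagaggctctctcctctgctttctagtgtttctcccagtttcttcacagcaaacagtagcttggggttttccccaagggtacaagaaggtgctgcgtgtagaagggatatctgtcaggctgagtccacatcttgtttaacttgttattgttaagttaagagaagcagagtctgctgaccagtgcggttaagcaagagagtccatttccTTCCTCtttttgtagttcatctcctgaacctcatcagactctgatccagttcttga
Fcgr4 promoter: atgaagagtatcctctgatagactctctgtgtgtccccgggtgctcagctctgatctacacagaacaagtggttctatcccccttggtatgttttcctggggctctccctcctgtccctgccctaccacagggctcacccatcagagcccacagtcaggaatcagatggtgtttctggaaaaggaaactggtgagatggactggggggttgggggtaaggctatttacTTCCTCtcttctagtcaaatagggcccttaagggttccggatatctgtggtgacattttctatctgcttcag
The PU.1 core occurred once in each, starting 55 bases before the start in Fcgr1, 6 bases before in Fcgr3 and 22 bases before in Fcgr4, each time as TTCCTC. It was not found in these windows of Fcgr2b, Fcer1g or Fcgrt, and 28.3% of 32851 mouse promoters of the same length hold it. A match is a description of letters only.

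Between 3 h and 0 h the activating receptors moved apart. Fcgr3 and Fcgr4 rose, Fcgr1 fell, and the gamma chain that all 3 use had no detectable difference. Of the 6 members, 3 were called higher (Fcgr3, Fcgr4, Fcgrt), 1 was called lower (Fcgr1) and 2 were not called (Fcgr2b, Fcer1g). Calls here are an adjusted p under 0.05 in edgeR's quasi-likelihood test over 14161 genes, of which 42.1% were called, 19.1% higher and 23% lower, and with so large a share of all genes called, 4 of 6 is no result about the members as a group. The median log2 change was 0.38 for the members and -0.01 for all genes tested.

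Fcgr3, the low-affinity activating receptor, had 472, 504 and 512 CPM in the 3 h libraries, against 194, 198 and 245 CPM in the 0 h libraries. All 3 h libraries lay far above all 0 h libraries. The mean was 496 ± 21.1 at 3 h and 212 ± 28.0 CPM at 0 h (SD over 3 libraries each), with a ratio of 2.34 and a log2 change of 1.31 (SE 0.13, edgeR adjusted p = 0.00196). It was called in 13 of 13 alternative settings, with log2 changes between 1.23 and 1.39.

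Fcgr4, which binds IgG2a and IgG2b in mice, had 197, 218 and 210.4 CPM in the 3 h libraries, against 156, 135 and 187 CPM in the 0 h libraries. The groups did not overlap, but the lowest 3 h library stood only slightly above the highest 0 h library. The log2 change of 0.47 (SE 0.13, edgeR adjusted p = 0.0274) was smaller than that of Fcgr3. The call was lost on leaving out replicate 1 or 2 of the 0 h group (edgeR adjusted p = 0.0553 and 0.0927) or replicate 2 or 3 of the 3 h group (0.0666 and 0.0836), and with limma on the authors' FPKM (adjusted p between 0.0535 and 0.0703).

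Fcgr1, the high-affinity receptor, had 76.9, 54.4 and 51.4 CPM in the 3 h libraries, against 89.4, 102 and 142 CPM in the 0 h libraries. Every 3 h library was below every 0 h library. The mean of 60.9 ± 13.9 CPM at 3 h was 0.548 times the 111 ± 27.3 CPM of 0 h (SD over 3 libraries each), with a log2 change of -0.79 (SE 0.20, edgeR adjusted p = 0.0180). The call was lost on leaving out replicate 2 or 3 of the 3 h group, which gave an edgeR adjusted p of 0.0583 and 0.0714.

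Fcer1g, the gamma chain, had 432, 595 and 586 CPM in the 3 h libraries and 627, 452 and 445 CPM in the 0 h libraries. The groups overlapped, with 1 library standing apart in each. The log2 change of 0.16 had an SE of 0.21 (edgeR adjusted p = 0.563).

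Fcgr2b, the inhibitory receptor, had 631, 747 and 625 CPM in the 3 h libraries, against 535, 578 and 584 CPM in the 0 h libraries. The groups did not overlap, as was so for 5 of the 6 members and for 54.6% of all genes tested. The log2 change of 0.31 (SE 0.12) did not pass (edgeR adjusted p = 0.0798), whereas DESeq2 gave an adjusted p of 0.0258.

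Activating receptor genes were set against Fcgr2b within each library as a ratio of counts. These bulk libraries also hold endothelial RNA, so the ratio can mix receptors of different cells. It is no balance within a cell. There were 0.749, 0.675 and 0.820 counts of Fcgr3 per count of Fcgr2b in the 3 h libraries, against 0.364, 0.342 and 0.419 in the 0 h libraries, a log2 difference of 1.00. For Fcgr1 the ratios were 0.122, 0.0729 and 0.0822 at 3 h, against 0.167, 0.177 and 0.243 at 0 h, a log2 difference of -1.10. Neither pair of groups overlapped, and the exact two-sided permutation test gave p = 0.1 for both, the smallest that 3 against 3 libraries allow. The ratio of Fcgr4 to Fcgr2b overlapped between the groups and differed by 0.17 on the log2 scale (exact permutation p = 0.4). How reads of sequence shared by Fcgr3 and Fcgr2b, in and outside the stretch printed above, were divided bears on their ratio. It is not given in the sources used here.

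**Figure D1:**
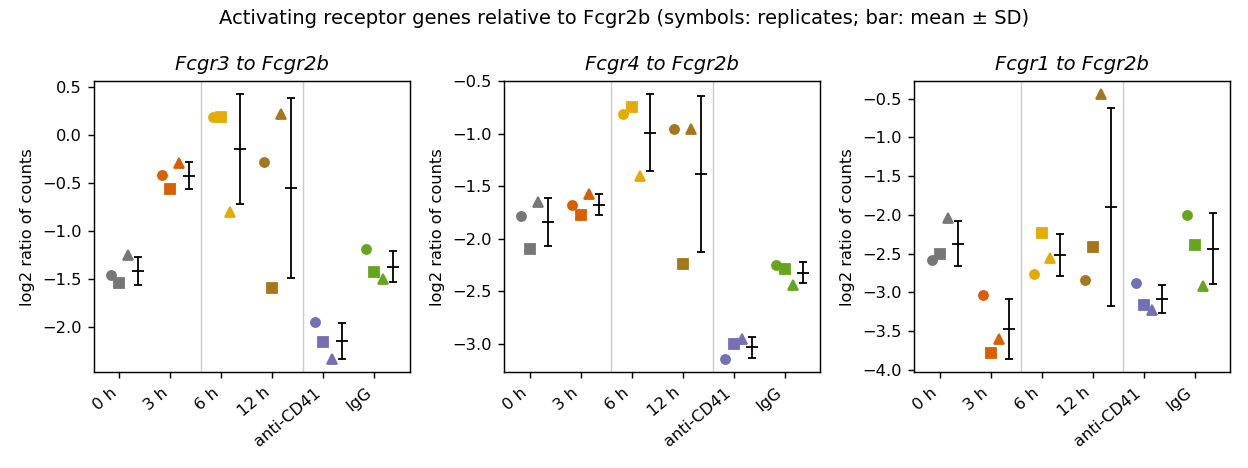
Log2 ratio of counts of Fcgr3 (left), Fcgr4 (middle) and Fcgr1 (right) to Fcgr2b on the vertical axis, in the 6 groups on the horizontal axis; symbols are replicates 1, 2 and 3, bars the mean ± SD of 3 libraries, and grey lines separate the 3 deposited tables. The Fcgr3 ratio was higher at 3 h than at 0 h, the Fcgr1 ratio was lower at 3 h, and the Fcgr3 and Fcgr4 ratios were lower with anti-CD41 than with IgG, with no overlap between libraries in each of these pairs.

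Fcgrt, the neonatal Fc receptor, had 399, 325 and 349 CPM in the 3 h libraries, against 245, 282 and 299.6 CPM in the 0 h libraries. The groups did not overlap. The log2 change was 0.45 (SE 0.12, edgeR adjusted p = 0.0246). The call was lost on leaving out replicate 1 or 3 of the 3 h group (edgeR adjusted p = 0.0602 and 0.0706) or replicate 1 or 2 of the 0 h group (0.0536 and 0.0643), and with limma on FPKM (0.0537 to 0.0706). Its partner B2m averaged 2241 ± 85.0 at 3 h and 1968 ± 28.5 CPM at 0 h (SD over 3 libraries each) and was not called (log2 change 0.26, edgeR adjusted p = 0.175). Alb, the message of its other cargo, averaged 1516 ± 659.6 at 3 h and 2636 ± 752 CPM at 0 h and was not called (-0.71, edgeR adjusted p = 0.164). Alb stands in a list of 10 hepatocyte markers, of which 7 were called lower and which summed to 1458 to 3597 CPM at 3 h and 4041 to 7596 CPM at 0 h.

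**Figure D2:**
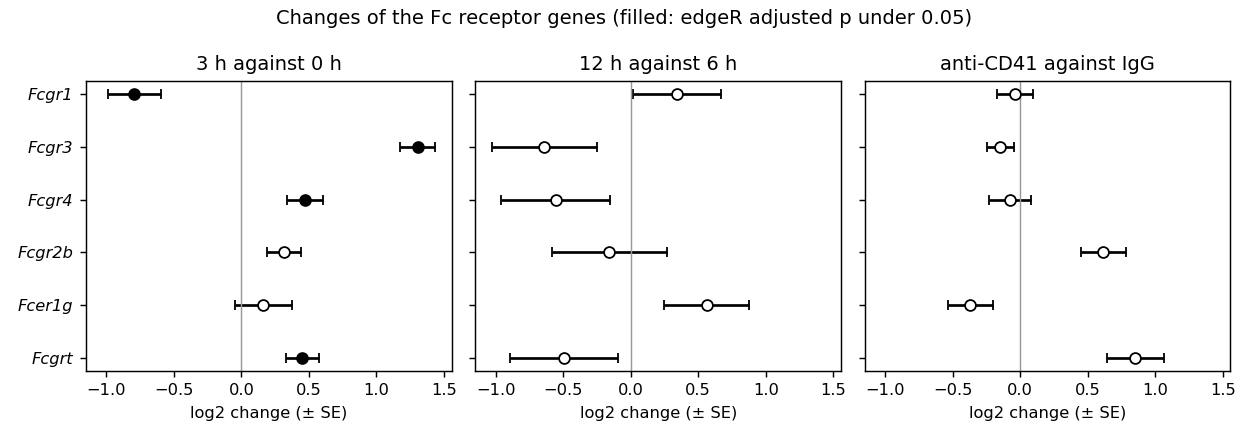
Log2 change of each Fc receptor gene on the horizontal axis (point, with bars of ± 1 SE from edgeR), left for 3 h over 0 h, middle for 12 h over 6 h and right for anti-CD41 over IgG; filled points have an adjusted p under 0.05. At 3 h Fcgr3, Fcgr4 and Fcgrt lie on the higher side and Fcgr1 on the lower side as filled points, and no point is filled in the other 2 comparisons.

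Among 17 genes that carry the activating signal onward, 2 rose and 2 fell at 3 h, with a median log2 change of 0.08 (edgeR adjusted p under 0.05 throughout these lists). The adaptor Gab2 (0.92) and the phosphoinositide 3-kinase subunit Pik3r1 (1.03) rose, and the phospholipase Plcg2 (-0.97) and the adaptor Card9 (-0.64) fell. Plcg2 averaged 91.9 ± 10.7 at 3 h and 189 ± 40.6 CPM at 0 h (SD over 3 libraries each).

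Of 11 genes of inhibitory signalling, 4 fell and 1 rose, with a median of -0.26. The adaptor Dok2 fell by 1.45 on the log2 scale, the Src-inactivating kinase Csk by 0.68 and the lipid phosphatase SHIP2 (Inppl1) by 0.57, each listed among the 4 with the smallest p, and the ubiquitin ligase Cblb rose by 1.24. The remaining gene called lower, chosen here after its values were seen, was the phosphatase SHP-1 (Ptpn6, -0.95). Dok2 averaged 51.8 ± 8.15 at 3 h and 148 ± 22.2 CPM at 0 h (SD over 3 libraries each).

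Of 13 adaptors with activation motifs and receptors or adaptors that work beside them, 11 were tested, with a median of 0.22. Hcst (0.80), the adaptor DAP10 with a different motif, and Clec4n (0.77), the lectin dectin-2 that uses the gamma chain, rose. Pilrb1 (-0.93) and Ncr1 (-1.92), the receptor NKp46 of natural killer cells, fell. Ncr1 was weakly expressed, with a mean CPM of 4.98 in the 0 h group and 1.25 in the 3 h group. It is also 1 of 8 markers of T and natural killer cells. Of these, 1 was called higher and only Ncr1 lower, with a median of 0.08. Of 12 other immunoglobulin receptors, 9 were tested: Pigr (-1.83), which carries IgA and IgM across epithelia, and Fcer2a (-1.02), the low-affinity IgE receptor of B cells, fell, and Fcrl1 (0.51) rose, with a median of -0.14. Of 14 genes of the phagocyte oxidase and of engulfment, Was (-0.37, edgeR adjusted p = 0.0493) fell and 13 were not called, with a median of -0.12.

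Cytokine signals and transcription factors known to set Fc receptor levels moved in both directions, with 5 of 17 genes higher and 6 lower and a median of 0.09. Il4ra, the receptor chain for interleukin 4, averaged 899.9 ± 240.3 at 3 h and 256 ± 25.2 CPM at 0 h (log2 change 1.89). Il10 averaged 202 ± 119 at 3 h and 26.4 ± 11.6 CPM at 0 h (3.01, SD over 3 libraries each). Ifngr1, the ligand-binding chain of the interferon gamma receptor, rose by 0.72. The other chain of that receptor, Ifngr2, chosen here after its values were seen, was called lower (-0.60, edgeR adjusted p = 0.0101).

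Markers of other cells differed between the same groups. Neutrophil markers, of which 6 of 10 were called higher, summed to 1624 to 3120 CPM at 3 h and 529 to 1515 CPM at 0 h. Monocyte markers, with 5 of 11 called lower and 1 higher, summed to 650.4 to 1130 CPM at 3 h and 1494 to 4767 CPM at 0 h. Platelet markers, with 6 of 6 tested called higher and a median of 1.67, summed to 154 to 186 CPM at 3 h and 55.6 to 67.1 CPM at 0 h. Kupffer cell markers, with 4 of 10 called higher, summed to 12054 to 16504 CPM at 3 h and 9528 to 13288 CPM at 0 h, and the endothelial markers, with 3 of 11 higher and 2 lower, to 7585 to 8479 CPM at 3 h and 5926 to 7504 CPM at 0 h. No marker of these lists was at 0 throughout a group. The part of any of these cells in the changes of the Fc receptor genes was not tested.

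Between 12 h and 6 h no member was called, and no gene of 14010 tested was (0%, with 726 at an unadjusted edgeR p under 0.05, none of them a member). DESeq2 called 3 genes, none of them a member. For all 6 members the libraries of the groups overlapped, as they did for all but 9.02% of genes. The median log2 change was -0.33 for the members and -0.01 for all genes.

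The 12 h libraries were unlike one another. Fcgr3 had 586, 264 and 310.2 CPM in 12 h replicates 1, 2 and 3, against 666, 680.4 and 450.2 CPM in the 6 h libraries (log2 change -0.64, SE 0.39). Fcgr4 had 367, 170.2 and 137 CPM at 12 h, against 333, 357 and 296 CPM at 6 h (-0.56, SE 0.40). In both, 12 h replicate 1 stood close to the 6 h libraries and the other two 12 h libraries lay below all of them.

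Fcgr1 ran the other way within the 12 h group, with 99.0, 151 and 196 CPM in replicates 1, 2 and 3, against 86.3, 128 and 133 CPM at 6 h (0.34, SE 0.32). Fcer1g had 520.2, 1046 and 792 CPM at 12 h, against 498, 546 and 532 CPM at 6 h (0.56, SE 0.32). Replicates 2 and 3 at 12 h were above every 6 h library for both genes.

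Fcgr2b had 712, 802 and 267 CPM at 12 h, against 586, 599 and 786 CPM at 6 h (-0.16, SE 0.43). Fcgrt had 331, 387 and 134 CPM at 12 h, against 355, 422 and 409 CPM at 6 h (-0.50, SE 0.40). Replicate 3 at 12 h was the lowest of the 18 libraries for both genes. Without it the Fcgr2b difference was 0.24 in place of -0.16.

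Markers of cell types split the 12 h libraries as well. The endothelial markers summed to 10093, 4367 and 1663 CPM in 12 h replicates 1, 2 and 3, against 6568 to 7635 CPM at 6 h. Monocyte markers summed to 634, 3713 and 5084 CPM in the same 12 h libraries, against 632 to 2230 CPM at 6 h. Fcgr2b and Fcgrt were lowest in the 12 h library with the smallest endothelial sum, replicate 3, but highest in replicate 2, whose sum was also below that of replicate 1. Fcgr2b amounted to 7.06%, 18.4% and 16% of the sum in replicates 1, 2 and 3. Fcgr1 was highest in the 12 h library with the largest monocyte sum, and the same held at 6 h and with anti-CD41. At 0 h, at 3 h and with IgG, Fcgr1 was instead highest in the library with the smallest monocyte sum. The part of either cell type was not tested.

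The ratios to Fcgr2b had no common direction. There were 0.823, 0.329 and 1.16 counts of Fcgr3 per count of Fcgr2b at 12 h, against 1.14, 1.14 and 0.573 at 6 h, a log2 difference of -0.41 (exact permutation p = 0.7). The differences were -0.39 for Fcgr4 (exact permutation p = 0.5) and 0.62 for Fcgr1 (exact permutation p = 0.7). Each turned its sign when 1 of the 12 h libraries was left out: to 0.11 for Fcgr3 and 0.03 for Fcgr4 without replicate 2, and to -0.11 for Fcgr1 without replicate 3.

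No gene of the signalling lists was called at 12 h. The median log2 changes were 0.19 for the activating, 0.11 for the inhibitory, 0.57 for the motif-paired, 0.21 for the other immunoglobulin receptor, 0.43 for the oxidase and engulfment and 0.25 for the cytokine and transcription factor genes. Syk, the kinase that the gamma chain recruits, averaged 375 ± 184 at 12 h and 349 ± 11.9 CPM at 6 h, and the Src-family kinase Lyn 570.1 ± 122 at 12 h and 555 ± 78.2 CPM at 6 h (SD over 3 libraries each). Tyrobp, the adaptor DAP12, averaged 588 ± 233 at 12 h and 411 ± 50.2 CPM at 6 h. The actin-nucleating subunit Arpc2 averaged 814 ± 208 at 12 h and 606 ± 71.3 CPM at 6 h, so the spread was again larger at 12 h.

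Between anti-CD41 and IgG, the 3 activating receptors and the gamma chain were not called, while Fcgr2b and Fcgrt stood higher with anti-CD41 in every library without passing the test. The test called 11 of 14905 genes (0.0738%), 10 higher (0.0671%) and 1 lower (0.00671%), none of them a member. At an unadjusted edgeR p under 0.05 there were 2757 genes, 2 of them members (Fcgr2b and Fcgrt). Groups did not overlap for 2 of 6 members and for 25.5% of all genes. The median log2 change was -0.06 for the members and 0.01 for all genes.

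Fcgr2b had 901, 1068 and 1091 CPM in the anti-CD41 libraries, against 513, 686 and 661 CPM in the IgG libraries. Every anti-CD41 library was above every IgG library. The mean was 1020.1 ± 104 CPM with anti-CD41 and 619.9 ± 93.1 CPM with IgG (SD, n = 3 each), a log2 change of 0.62 (SE 0.16, edgeR adjusted p = 0.162). Over the alternatives the adjusted p was between 0.0205, with DESeq2, and 0.547.

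Fcgrt had 335, 493 and 454 CPM in the anti-CD41 libraries, against 169, 257 and 235 CPM in the IgG libraries. These groups did not overlap either. The ratio of means was 1.94 and the log2 change 0.85 (SE 0.21, edgeR adjusted p = 0.158). The adjusted p was 0.0115 with DESeq2 and up to 0.543 when 1 library was left out. Its partner B2m averaged 1334 ± 107 CPM with anti-CD41 and 1256 ± 361 CPM with IgG (SD, n = 3 each, log2 change 0.00, SE 0.20).

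The endothelial markers were set beside these genes, and their sum was 9220, 12525 and 12447 CPM with anti-CD41, against 4049, 6480 and 7255 CPM with IgG. Of the 11 markers, 10 had a log2 change above 0, with a median of 0.93, and none was called. Fcgr2b amounted to 9.77%, 8.53% and 8.77% of that sum with anti-CD41, against 12.7%, 10.6% and 9.10% with IgG. Fcgrt amounted to 3.63%, 3.94% and 3.65% with anti-CD41, against 4.17%, 3.97% and 3.24% with IgG. As a share of the endothelial sum, the groups thus overlapped for both genes. Other lists also stood above 0: 10 of 10 hepatocyte markers did, with a median of 0.98 and a sum of 844 to 2423 CPM with anti-CD41 and 959 to 1131 CPM with IgG, and 8 of 10 Kupffer cell markers did, with a median of 0.37 and a sum of 8739 to 14074 CPM with anti-CD41 and 8887 to 11952 CPM with IgG. None of these was called, and the part of any of these cells in the values of Fcgr2b and Fcgrt was not tested.

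**Figure D3:**
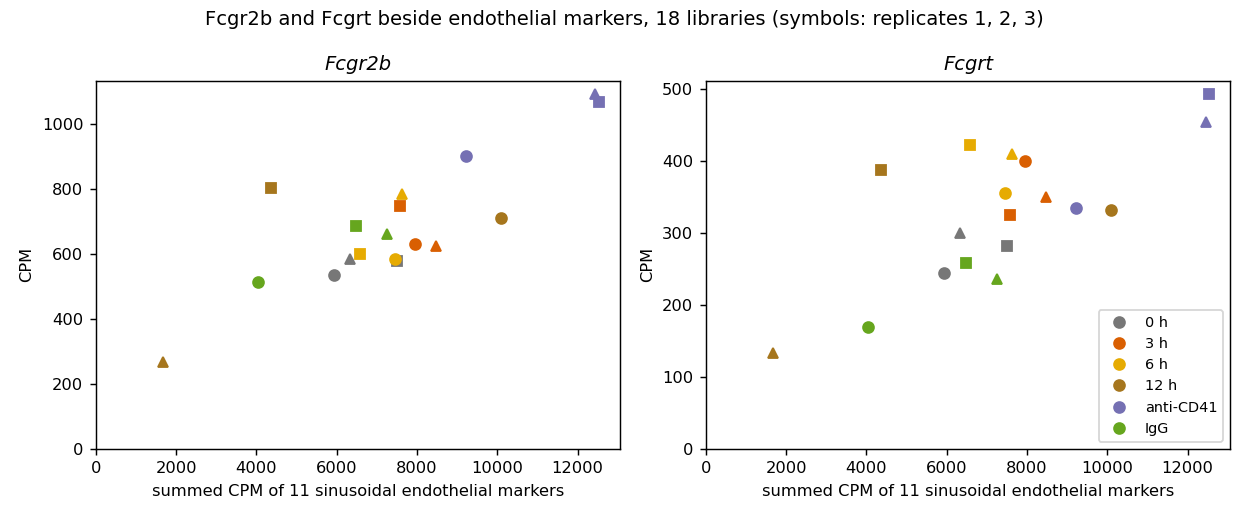
CPM of Fcgr2b (left) and Fcgrt (right) on the vertical axis against the summed CPM of 11 sinusoidal endothelial markers on the horizontal axis, for 18 libraries coloured by group (symbols: replicates 1, 2 and 3). The 3 anti-CD41 libraries have endothelial sums of 9220 to 12525 CPM, above the 4049 to 7255 CPM of the IgG libraries, and 12 h replicate 3 has the lowest sum (1663 CPM) and the lowest level of both genes.

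The activating receptors differed by less than their spread. Fcgr3 had 233, 239.6 and 216 CPM with anti-CD41, against 225, 254 and 233 CPM with IgG (log2 change -0.15, SE 0.10, edgeR adjusted p = 0.478). Fcgr4 had 102, 134 and 141 CPM with anti-CD41, against 108, 141 and 122 CPM with IgG (-0.08, SE 0.16). Fcgr1 had 122, 119.6 and 117 CPM with anti-CD41, against 128, 131 and 87.5 CPM with IgG (-0.04, SE 0.14). In all 3 genes the groups overlapped, and for Fcgr4 and Fcgr1 the means in CPM lay slightly higher with anti-CD41 although the fitted changes were slightly below 0.

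Fcer1g had 355, 267 and 284 CPM with anti-CD41, against 441, 354 and 305 CPM with IgG. The groups overlapped, with 1 anti-CD41 library above 2 of the IgG libraries. The log2 change was -0.37 (SE 0.17, edgeR adjusted p = 0.292).

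In the ratio to Fcgr2b the activating receptors were lower with anti-CD41. There were 0.258, 0.224 and 0.198 counts of Fcgr3 per count of Fcgr2b with anti-CD41, against 0.437, 0.370 and 0.353 with IgG, a log2 difference of -0.77. For Fcgr4 the ratios were 0.113, 0.125 and 0.129 with anti-CD41, against 0.211, 0.205 and 0.185 with IgG, a difference of -0.71. Neither pair overlapped, and both had an exact two-sided permutation p of 0.1, the smallest possible. For Fcgr1 the difference was -0.65 with overlap (exact permutation p = 0.2). The 3 numerators differed by less than their spread, as given above. The mean of Fcgr2b was 1020.1 CPM with anti-CD41 and 619.9 CPM with IgG. The mean endothelial sum was 11397 CPM with anti-CD41 and 5928 CPM with IgG, and its part in the ratios was not tested.

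Most signalling genes had a fitted change below 0 with anti-CD41, and none was called. A log2 change below 0 was found for 16 of 17 activating genes (median -0.36), 10 of 11 inhibitory genes (-0.35), 9 of 12 motif-paired genes tested (-0.44), 14 of 14 oxidase and engulfment genes (-0.37), 4 of 8 other immunoglobulin receptors tested (-0.02) and 14 of 17 cytokine and transcription factor genes (-0.27). The kinase Syk averaged 507 ± 90.3 CPM with anti-CD41 and 602 ± 20.3 CPM with IgG, and the phosphatase Ptpn6 486 ± 74.0 CPM with anti-CD41 and 629.6 ± 63.8 CPM with IgG (SD, n = 3 each). Clec7a, the lectin dectin-1, averaged 330.3 ± 28.0 CPM with anti-CD41 and 469.6 ± 51.5 CPM with IgG, and the actin regulator Coro1a 656 ± 187 CPM with anti-CD41 and 950.2 ± 119.7 CPM with IgG. The myeloid transcription factor Cebpb averaged 572 ± 129 CPM with anti-CD41 and 1056 ± 311 CPM with IgG (edgeR adjusted p = 0.170).

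Monocyte markers summed to 1604 to 3380 CPM with anti-CD41 and 4623 to 5622 CPM with IgG, and all 11 had a log2 change below 0. Neutrophil markers summed to 371 to 799 CPM with anti-CD41 and 1053 to 4687 CPM with IgG, and 9 of 10 were below 0. Platelet markers summed to 88.4 to 112 CPM with anti-CD41 and to 61.2, 97.1 and 250.4 CPM in IgG replicates 1, 2 and 3. Of these markers, 5 of 7 were above 0 (median 0.22), and those below were Itgb3 (-1.03) and Pf4 (-0.65). Itgb3 was the largest part of the sum, with a mean of 52.3 ± 9.20 CPM with anti-CD41 and 97.4 ± 80.4 CPM with IgG. No marker in these lists was called, and their part in the signalling genes was not tested.

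**Figure D4:**
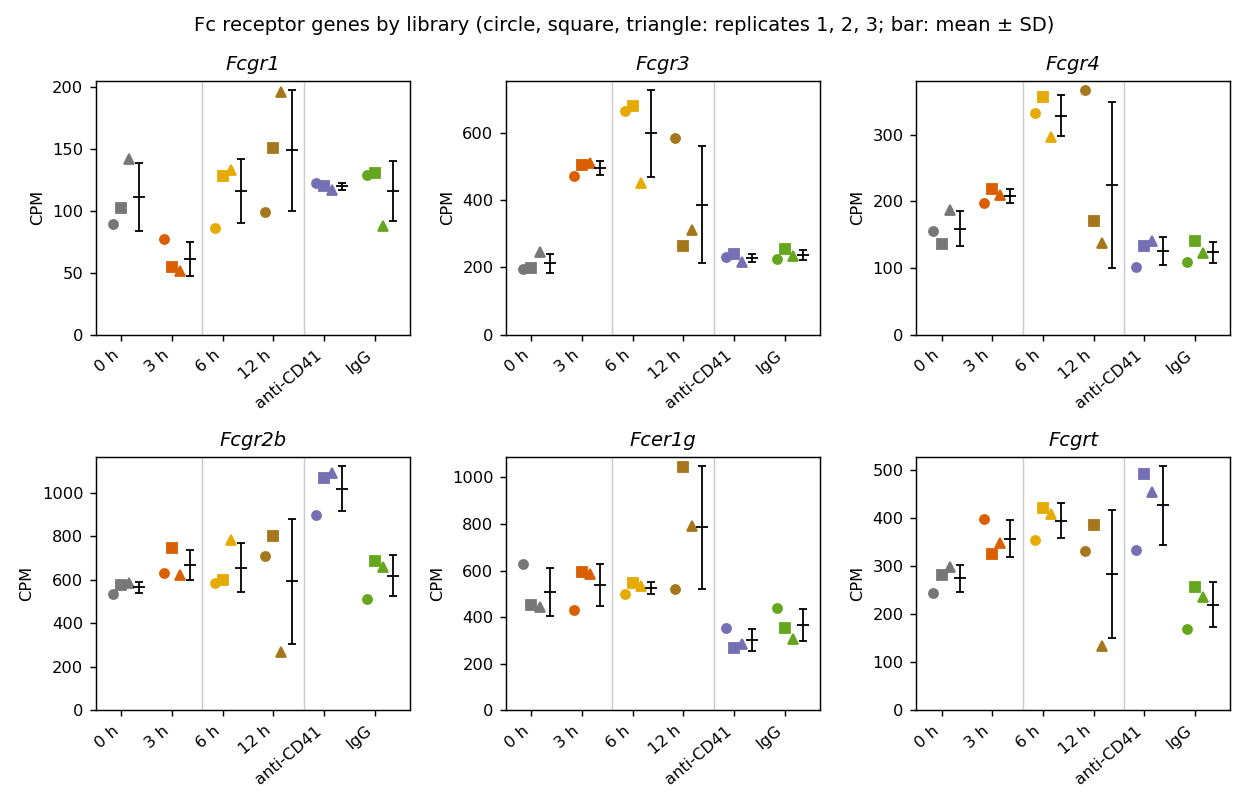
CPM of the 6 Fc receptor genes on the vertical axis in the 6 groups on the horizontal axis; circles, squares and triangles are replicates 1, 2 and 3, bars the mean ± SD of 3 libraries, and grey lines separate the 3 deposited tables. Fcgr3 and Fcgr4 peaked at 6 h, Fcgr1 was lowest at 3 h, Fcgr2b and Fcgrt were highest with anti-CD41, and the SD was largest at 12 h for all 6 genes.

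Set side by side over the 6 groups, each gene had its own order. The levels are plain CPM from 3 tables that were made separately, so differences across tables were not tested. Fcgr3 was highest at 6 h (599 ± 129 CPM), then 3 h (496 ± 21.1), 12 h (387 ± 174), IgG (237 ± 15.0), anti-CD41 (229.5 ± 11.9) and 0 h (212 ± 28.0). In that order only 12 h and IgG did not overlap as neighbours. Fcgr4 also led at 6 h (329 ± 30.7 CPM), followed by 12 h (225 ± 124), 3 h (209 ± 10.6), 0 h (159 ± 25.8), anti-CD41 (126 ± 20.7) and IgG (124 ± 16.1), and its only neighbours without overlap were 3 h and 0 h.

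For Fcgr1, 12 h (149 ± 48.5 CPM), anti-CD41 (119.6 ± 2.80), 6 h (116 ± 25.6), IgG (116 ± 24.3) and 0 h (111 ± 27.3) overlapped from neighbour to neighbour, and 3 h (60.9 ± 13.9) stood below. Fcer1g was highest at 12 h (786 ± 263 CPM), followed by 3 h (538 ± 91.9), 6 h (525 ± 24.7), 0 h (508 ± 103), IgG (366 ± 68.8) and anti-CD41 (302 ± 46.5). It had a gap only between 0 h and IgG. These stand in different tables, as do all other neighbours in that order except IgG and anti-CD41. Fcgr2b stood at 1020.1 ± 104 CPM with anti-CD41, clear of 3 h (668 ± 68.9), and the rest overlapped as neighbours down to 0 h (566 ± 26.6). Fcgrt had no gap at all between its neighbours, from anti-CD41 (427 ± 82.4 CPM) through 6 h (396 ± 35.5) to IgG (221 ± 46.1).

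Levels were compared between genes as CPM per kilobase, with the length implied by the authors' FPKM. At 0 h the gamma chain Fcer1g led with 834 ± 169, followed by Fcgr2b (416 ± 19.5), Fcgr3 (163 ± 21.5), Fcgrt (163 ± 16.6), Fcgr4 (133 ± 21.5) and Fcgr1 (43.7 ± 10.7, all SD, n = 3). Only Fcgr3, Fcgrt and Fcgr4 overlapped as neighbours. At 3 h all neighbours were apart, with Fcgr3 (381 ± 16.2) next below Fcgr2b (491 ± 50.7), and at 6 h these overlapped (Fcgr3 at 459.9 ± 99.1, Fcgr2b at 483 ± 82.2). The anti-CD41 group was the only one in which Fcgr2b (750.5 ± 76.4) stood above Fcer1g (496 ± 76.4). In the IgG group Fcer1g (602 ± 113) and Fcgr2b (456 ± 68.5) overlapped. The lengths were taken from the time-course tables, so those of the antibody table may differ.

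The 6 members together took 0.221% to 0.244% of all counts at 3 h and 0.175% to 0.190% at 0 h, 0.184% to 0.282% at 12 h and 0.252% to 0.273% at 6 h, and 0.205% to 0.232% with anti-CD41 and 0.158% to 0.182% with IgG. The groups did not overlap in the first and last of these pairs.

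Across the 18 libraries, the members fell into different company. Likeness was Pearson's r of log2(CPM + 1), with each gene centred on its mean in each table, over 12899 genes tested in all 3 comparisons. The libraries share tables and groups, so r is a description. Fcgr2b and Fcgrt were alike (r = 0.93), and each stood at rank 22 among all genes for the other. Fcgr3 and Fcgr4 followed (0.79), whereas Fcgr1 ran against Fcgr3 (-0.75) and Fcgr4 (-0.61). Fcer1g was unlike every receptor that it serves, with r of -0.64 to Fcgr4, -0.40 to Fcgr3 and 0.18 to Fcgr1.

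The genes most like Fcgr2b were Dnase1l3 (0.96), Klhl4 (0.96) and Clec14a (0.95), and those most like Fcgrt were Cdkn1c (0.96), Pgm5 (0.95) and Npr2 (0.95). Clec14a is known as an endothelial surface lectin. Fcgr3 was closest to Rcan1 (0.97), Aph1b (0.96) and Pias1 (0.95), and Fcgr4 to Lpin3 (0.93), 1700025G04Rik (0.93) and Tns1 (0.92). Fcgr1 was closest to Xpo1, Dhx58 and Evl (0.92 each). Dhx58 encodes the interferon-inducible RNA sensor LGP2. Fcer1g was closest to Katna1 (0.94), Prdx5 (0.93) and Adprh (0.93).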

How the data were processed

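Total RNA of 18 Kupffer cell libraries was sequenced. Reads were aligned with HISAT2 to GRCm38, per the submitters' processing notes; which program counted the reads, with which annotation and in which versions, is not given in the sources used here. Per the file headers and values, the time-course tables hold expected counts and FPKM per gene made by the authors, and the antibody table holds counts, all whole, that the authors deposited. In the time-course tables, 35.3% to 36.2% of the expected counts were not whole, and they were rounded for testing. In the antibody table, 27 symbols that had turned into dates were restored from their identifiers.

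Every comparison stayed within 1 table and was fitted over all its genes with edgeR 4.0.16 (R 4.3.3): filterByExpr with a minimum count of 10, TMM scaling, the quasi-likelihood test and Benjamini-Hochberg adjustment with a threshold of 0.05. The test was checked on simulated counts. Levels are CPM from the unscaled library totals. Ratios were compared by exact two-sided permutation tests (SciPy 1.17.1), whose smallest p is 0.1. FPKM served for the implied gene lengths and for limma 3.58.1 on log2(FPKM + 1) or log2(FPKM + 0.1), with at least 1 FPKM in 3 libraries or no filter. Other alternatives were DESeq2 1.42.0, its size factors within edgeR, a fit with no expression filter, a block for the replicate number, and each library left out. No library pair agreed within sampling noise (lowest chi-square per degree of freedom 15.8). The members and lists were chosen with earlier results of these data known, and the endothelial shares were added after seeing the values. Named are all members, up to 4 called genes per list with the smallest p (with no call, up to 2 of the highest level) and the 3 genes most like each member. Other genes of the lists are given as counts, and 1 gene that the rule names is not reported here.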

Additional observations from a re-analysis of the deposited data

How the results depend on the processing

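Fcgr3 kept its direction and its call at 3 h in 13 of 13 alternatives, with adjusted p up to 0.0129. The count of Fc receptor genes called higher at 3 h, 3 in the edgeR test, was 1 (Fcgr3) with limma on log2(FPKM + 1), on log2(FPKM + 0.1) and on log2(FPKM + 1) without a filter, and between 1 and 3 when 1 library was left out. On log2(FPKM + 1) the median of all genes was -0.11, and calls among all genes were 1783 higher and 3381 lower, against 2703 and 3264 with edgeR. The count called lower, 1 in the edgeR test (Fcgr1), was between 0 and 1 when 1 library was left out.

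For anti-CD41 against IgG, DESeq2 called 2 members higher (Fcgrt and Fcgr2b) and 1121 genes in all, where edgeR called 11. Replicate numbers did not clearly pair the libraries. The correlation of deviations between same-numbered libraries was between -0.151 and 0.312, and in no comparison over 0.1 for all 3 pairs. In the antibody table each library still correlated best with the library of its own number (0.171, 0.297 and 0.088). Whether those libraries are paired is thus undecided. With the number as a block, 1 member was called higher with anti-CD41 (Fcgrt, adjusted p = 0.0273) and 384 genes in all, and Fcgrt was not called at 3 h (0.0651). The block changed no other member's call.

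Several small differences changed sign when 1 library was left out, and the cause was not tested. At 12 h over 6 h, Fcgr2b was between -0.42 and 0.24, above 0 on leaving out replicate 3 of either group (0.24 for 12 h, 0.0043 for 6 h). The ratio differences to Fcgr2b were between -0.80 and 0.11 for Fcgr3, -0.61 and 0.03 for Fcgr4, and -0.11 and 1.09 for Fcgr1, with signs turned to 0.11, 0.0333 and -0.11 on leaving out 12 h replicate 2, 2 and 3 in that order. For anti-CD41, Fcgr1 was between -0.17 and 0.0457 (above 0 without IgG replicate 1, at 0.03, or 2) and Fcgr4 between -0.18 and 0.0484 (above 0 without anti-CD41 replicate 1 or, at 0.0034, IgG replicate 2). Among all genes, calls at 3 h numbered 3512 without 3 h replicate 3 and 3715 without 0 h replicate 2, against 5967. Those at 12 h numbered 2 without 12 h replicate 1, against 0, and those for anti-CD41 between 0 and 110, against 11. With 3 libraries per group and a biological coefficient of variation of 0.371 for 12 h and 6 h and 0.267 in the antibody groups, a missed threshold does not show equal levels.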
